A study of Cercocebus atys with 16 samples.

Results

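The stimulation response of double-negative T cells was followed in the 2 sooty mangabeys with low CD4 status, FBR and FTV. Of the 16 arrays of the series, 4 set stimulated against unstimulated RNA of these animals, 2 per animal with the dyes exchanged; they were chosen by their titles, which name the comparison and end in Low. All 4 mangabeys (Cercocebus atys) of the series carried SIV, the simian immunodeficiency virus, and the other 2, FNV and FKN, had normal CD4 status. Age, sex, strain and the CD4 counts behind the status labels are not given in the sources used here.

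Per the labels' protocols, cells positive for CD3 and without CD4, CD8 and CD16 were taken from blood mononuclear cells with magnetic beads at a purity above 98% and rested overnight. Purified cells then received anti-CD3 and anti-CD28, at concentrations given as 3 and 1 mg/ml, over 4 hours, or were left unstimulated. Both conditions of both groups therefore come from infected animals, and no uninfected animal was part of the design. The Agilent array carries 60-base probes designed on rhesus macaque sequence, and a mismatch to the mangabey transcript can lower a probe's signal.

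Double-negative T cells carry the T cell receptor without either coreceptor. Antibodies to CD3 engage the receptor complex and antibodies to CD28 give the costimulatory signal; together they switch on cytokine genes, growth and ribosome production within hours. Sooty mangabeys are natural hosts of SIV that usually stay healthy even when their CD4 T cells fall, and double-negative T cells have been studied there as cells that could take over helper functions.

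Probes of some of the named genes are shown to place the measurements. For each, a stretch of 30 bases is printed 5′ to 3′ as the array files give it, with the pentamer ATTTA in capitals, the core of the AU-rich elements found in many short-lived cytokine transcripts.
IL5: ctagactacctgcaagagtttcttggtgta
IL22: aaacaattgtctttttccgtaaagaagatt
IL2: ttgtcaaagcatcatctcaacactgacctg
IL13: gtttgtaaaggacctgctcgtacATTTAaa
CD40LG: gtATTTAaaggaaatctattgtatctacct
TNFSF11: aagagtATTTAtgtaattgttgaacaggtg
PIK3IP1: ATTTAgtgtgggaaattgctctgcatttga
EDN1: attccaagaaaggttaaggagttcccccaa
KCNJ2: ctgtctctttgtatctaaagtcttcctatt
On the rheMac2 build of the files, the TNFSF11 probe lay at chr17:21534806-21534865 (plus strand), the EDN1 probe at chr4:12273484-12273543 (plus strand) and the KCNJ2 probe at chr16:65405898-65405957 (plus strand). The CD40LG probe lay at chrX:134728288-134728347 (plus strand). Whether these bases are exonic, coding or untranslated was not analysed here.

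On the probe's own strand it stood in 8.61% of the probes of the 697 features that rose at least 2-fold in both CD4-low animals and in 9.07% of the 562 that fell as far. It stood in 7.14% of all tested probes. The median GC content of the probes that rose, that fell and of all tested was 41.7%, 43.3% and 45%. The probes printed above hold ATTTA more often than any of these sets, so they are not typical of them.

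Between 60.6% and 66.4% of the 43803 non-control spots were well above background on the 8 arrays of FBR and FTV, and 1 to 51 spots per array were left out as outliers. The T cell label held: all 8 measured markers, among them CD3D, CD3E and CD3G, were well above background in all 4 unstimulated channels. CD4 was also above background in 4 of 4, with a log2 level of 9.42 in FBR and 9.19 in FTV, as was CD8B at 7.44 and 7.24; CD8A was not analysed here. RNA of other blood cells was measurable too. Of the monocyte markers 13 of 15 were above background in all 4 unstimulated channels, of the B cell markers 8 of 12 and of the natural killer cell markers 4 of 12, while CLEC7A, FCRL1, VPREB3, KLRC3, NCR2 and SH2D1B were in none. The summed unstimulated log2 level of the monocyte list was 13.65 in FBR, 14.07 in FTV, 14.01 in FKN and 17.19 in FNV.

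Stimulation changed a broad set of genes in both CD4-low animals. Of 21837 tested features, 4764 passed the test of the mean log2 ratio of the 2 animals against 0 (21.8%; limma's moderated test on the ratios of all 4 animals, adjusted p under 0.05). Of these, 2408 rose (11%) and 2356 fell (10.8%), and 4760 had the same sign on all 4 arrays. A rise of at least 2-fold in each animal was seen for 697 features (3.19%) and such a fall for 562 (2.57%), while 0 moved 2-fold in opposite directions. Of these 1259 features, 57 did not pass the test. A change of at least 8-fold in both animals was reached by 24 features that rose and 10 that fell.

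With median centring in place of loess, the test called 150 features, of which 39.3% rose, against 50.5% of the 4764. The 2-fold features then split into 941 higher and 450 lower. No feature was called without FBR or without FTV, when a lone CD4-low animal was assumed to vary like the CD4-normal pair. The p-values rest on the spread between animals within both CD4 groups, since the fit holds all 4 animals. A change per cell cannot be told apart from a change in the share of cells that carry the RNA.

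**Figure D1:**
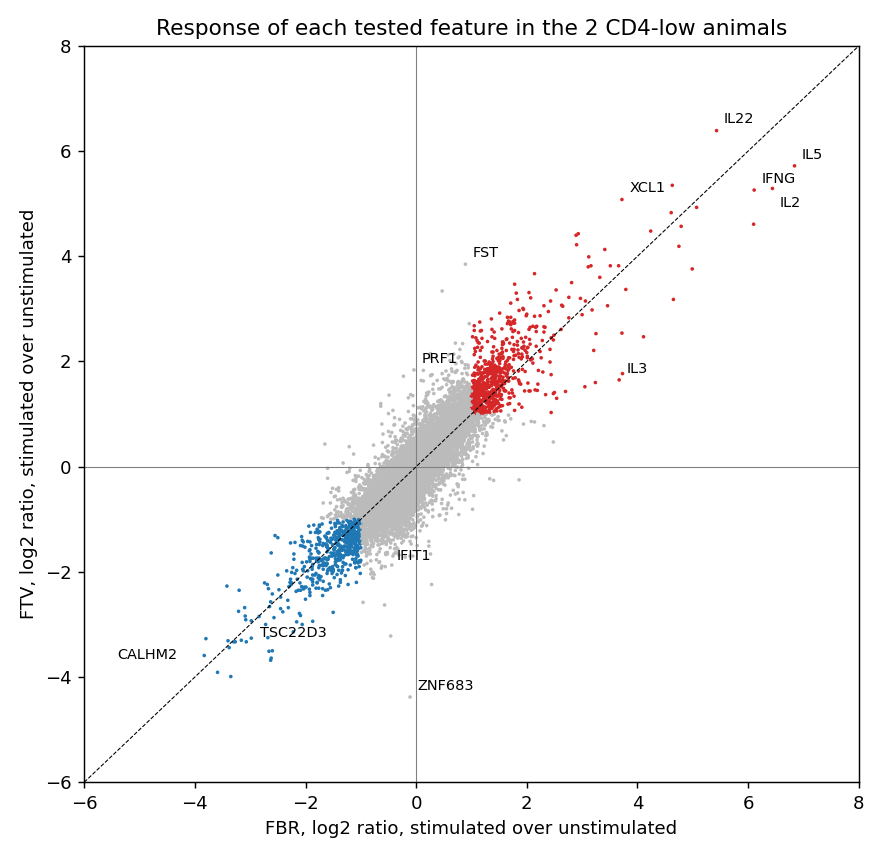
Log2 ratio of stimulated over unstimulated for each of the 21837 tested features in FBR (x axis) and FTV (y axis), with the 697 features at least 2-fold higher in both animals in red, the 562 at least 2-fold lower in blue and all others in grey; the dashed line marks equal ratios. No point lies beyond 2-fold in opposite directions, and ZNF683 and FST stand far from the line.

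The self-self arrays, which hold the same RNA in both channels, gave the background of the method. With loess and no background correction, their log2 ratios had an SD of 0.11 to 0.15 over the tested features and passed 2-fold in 1 to 5 features per array. On the ratio arrays the same SD was 0.57 and 0.58 in FBR and 0.68 and 0.69 in FTV, with 1628 to 2684 features past 2-fold. Stimulated and unstimulated levels on separate self-self arrays gave the response a second time. All 697 features that rose at least 2-fold were above 0 there in both animals, 501 of them by at least 2-fold in both. All 562 that fell were below 0, 450 of them by at least 2-fold. These features had been chosen as 2-fold on ratio arrays of the same animals, so their agreement in sign is no independent test. Over all tested features the 2 kinds of array correlated at r = 0.98 in FBR and 0.97 in FTV (Pearson). The self-self levels used normexp, which left a lowest log2 intensity of 6.82 on the stimulated array of FTV.

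Cytokine genes led the rises. IL5, the growth factor of eosinophils, had log2 ratios of 6.69 and 7.00 on the 2 arrays of FBR and 5.71 and 5.73 on those of FTV. It rose by 6.28 ± 0.80 (SD, n = 2; 77.8-fold; limma adjusted p = 0.0101). FBR was higher than FTV on both of its arrays, and the dye orientations differed by less than the animals did.

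IL22, which acts on epithelial barriers, had the opposite order. Its ratios were 5.41 and 5.45 in FBR and 6.20 and 6.57 in FTV, and it rose by 5.91 ± 0.68 (SD, n = 2; 60.1-fold; limma adjusted p = 0.0101). Its unstimulated log2 level was 10.48 in FBR and 7.02 in FTV, and its stimulated level was 15.91 and 13.41, so FTV rose further from a lower start and ended lower.

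IL2, the T cell growth factor, had ratios of 6.36 and 6.53 in FBR and of 5.05 and 5.52 in FTV. It rose by 5.87 ± 0.82 (58.3-fold), and IFNG, the activator of macrophages, by 5.68 ± 0.60 (51.4-fold), with ratios of 6.08 and 6.13 in FBR and 5.40 and 5.13 in FTV (SD, n = 2; limma adjusted p = 0.0101 for both). For both genes the arrays of FBR and FTV did not overlap, and all 4 exceeded 1.65, the largest size of any self-self ratio in FBR or FTV.

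The other 11 of the 15 largest rises ranged from 3.46 to 4.99. They held PTGS2, the inducible cyclooxygenase (4.63 in FBR, 5.35 in FTV), IL4 (4.79, 4.57) and IL13 (4.75, 4.19), the defining cytokines of Th2 cells, and IL10, which restrains inflammation (3.51, 3.82). They also held XCL1, a chemokine for dendritic cells (3.72, 5.08), CCL20, the ligand of CCR6 (4.99, 3.76), and PDGFA, a platelet-derived growth factor chain (2.90, 4.22). TNIP3 and RIPK2 of the NF-kB pathway, the costimulatory receptor TNFRSF9 and CISH, a feedback inhibitor of IL-2 receptor signals, complete them. The 11 passed with limma adjusted p values of 0.0101 to 0.0253. XCL1 has a near-identical copy, XCL2, which the probe may share.

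The rises and falls named here were ranked among features with a gene symbol. The 10 largest falls ranged from -3.08 to -3.71, and each was lower on 4 of 4 arrays. CALHM2, a calcium homeostasis modulator gene, had ratios of -3.75 and -3.92 in FBR and -3.47 and -3.72 in FTV, and fell by 3.71 ± 0.17 (SD, n = 2; limma adjusted p = 0.0101). PIK3IP1, an inhibitor of PI3 kinase in resting T cells, had -3.80 in FBR and -3.27 in FTV. PTGDR2, the prostaglandin D2 receptor of Th2 cells, had -3.30 and -3.33, and IL16, a chemoattractant for CD4 cells, -3.16 and -3.30. TMEM204, SYTL2, ACCN2 (an acid-sensing channel), GPC2 (a glypican), FAM78A and HTRA1 (a serine protease) were the others, with limma adjusted p values of 0.0101 to 0.0154 over the 10.

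**Figure D2:**
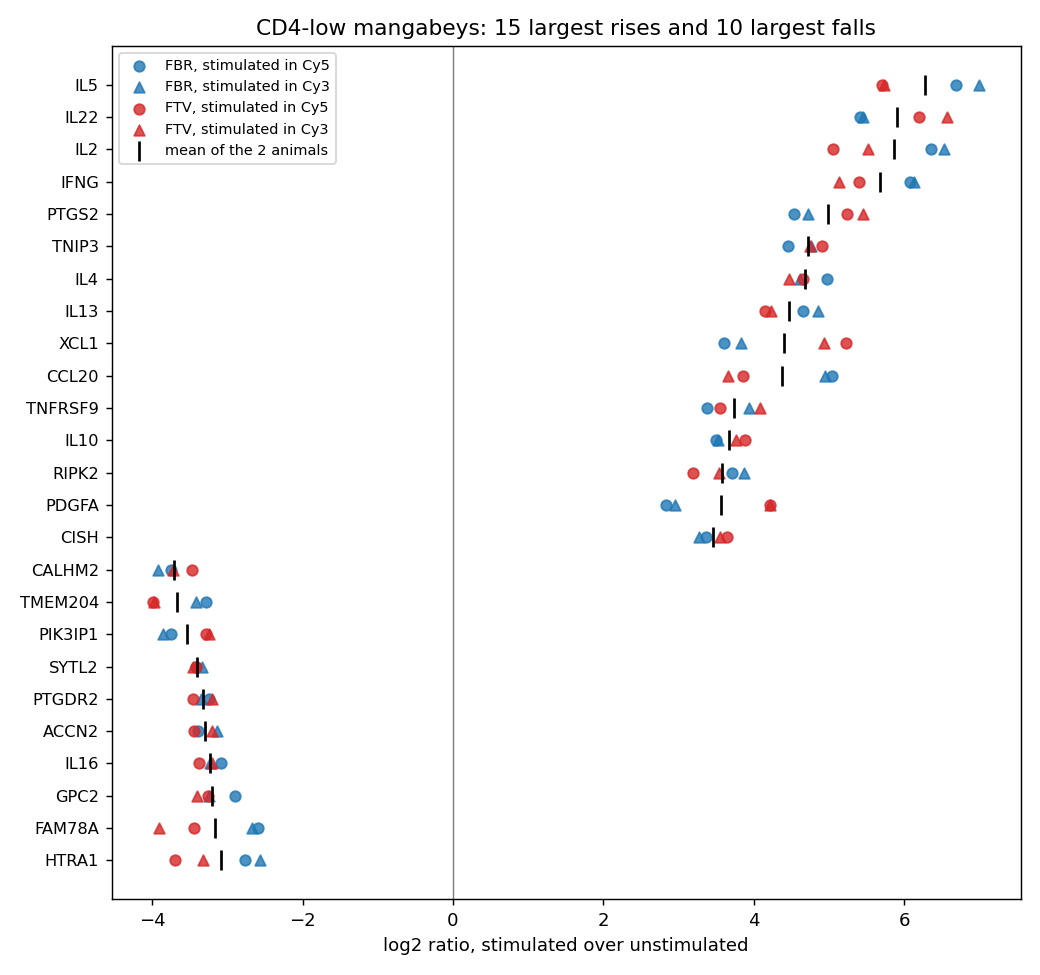
Log2 ratio of stimulated over unstimulated on each of the 4 arrays (circles and triangles for the dye that carried stimulated RNA) for the 15 largest rises and 10 largest falls, with a bar at the mean of the 2 animals. For IL5, IL2 and IFNG both FBR arrays lie above both FTV arrays, and for IL22, XCL1 and PDGFA both lie below.

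Other probes and other processing gave other sizes for some of these genes. Another tested probe of IL10 had 0.29 in FBR and 0.31 in FTV (mean 0.30; adjusted p = 0.449), and another probe of ACCN2 had a mean of -0.12 (adjusted p = 0.403), both by limma over every probe. The other probes of PTGS2 gave 2.71 and 4.02, and that of CALHM2 -0.83. In the authors' deposited table TNFRSF9 stood at 5.20 in FBR and 5.40 in FTV, against 3.66 and 3.82 here. IL21 stood at 4.12 and 5.05 in the authors' deposited table, against 1.71 and 2.70 here, where only 2 of 4 unstimulated channels were well above background.

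By helper programme, the leading cytokine genes had larger ratios than TBX21, GATA3 and FOXP3. Of 16 tested Th1 genes 6 rose and 1 fell (median log2 ratio 0.56, against -0.01 over all features). The counts of this list and of those that follow stand beside 11% of all features that rose and 10.8% that fell. TNF, an inflammatory cytokine, had 3.18 in FBR and 2.98 in FTV. TBX21, the Th1 factor, had 0.53 and 0.49 (limma adjusted p = 0.0454), and CXCR3, a homing receptor of Th1 cells, fell by 1.86. Of 11 tested Th2 genes 4 rose and 1 fell (median 0.90, or 2.33 in the authors' deposited table), and GATA3, the Th2 factor, did not pass, with 0.67 in FBR and 0.05 in FTV (limma adjusted p = 0.286). The lists were put together with earlier results of these data known, so their direction is no independent evidence.

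Of 15 tested Th17 genes 9 rose and 1 fell (median 0.88; the scanner software's ratios gave 1.46, and 1.36 stood in the authors' deposited table). IL17A, the cytokine that names the lineage, had 3.72 in FBR and 2.54 in FTV (limma adjusted p = 0.0117). Of 15 follicular helper genes 5 rose and 0 fell (median 0.64). CD40LG, which licenses B cells, had 2.69 and 2.61 on the FBR arrays and 3.17 and 2.93 on the FTV arrays, and ICOS, a costimulator, had 1.84 in FBR and 2.22 in FTV. Of 15 regulatory T cell genes 6 rose and 0 fell (median 0.52, or 1.5 in the authors' deposited table). IL10 and CTLA4, an inhibitory receptor (2.76, 2.83), were among them, while FOXP3, the defining factor, had 0.08 and 0.05 (limma adjusted p = 0.631).

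Growth factor and other cytokine genes rose in 16 of 21, and 1, IL16, fell (median 1.19). CSF2, the granulocyte-macrophage factor, had 3.21 in FBR and 2.21 in FTV, and TNFSF11, the RANK ligand, 2.33 and 2.65. Chemokine genes rose in 6 of 17 and fell in 0 (median 1.35), with a median of 0.59 in FBR and 1.63 in FTV. CXCL10 and CXCL11, ligands of CXCR3 induced by interferon gamma, were higher in FBR (3.73 and 4.11) than in FTV (1.77 and 2.47), and CXCL9, the other such ligand, was lower (2.00 in FBR, 2.90 in FTV). CCL5, a chemokine of cytotoxic cells, had 0.13 in FBR and 1.63 in FTV and did not pass.

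Surface markers of activation were among the lists with the largest shares that rose, 17 of 21, and 0 fell (median 1.40). CD69, an early marker measured by a probe described only as CD69-like, had 2.06 and 2.33, and TFRC, the transferrin receptor, 3.00 and 2.89. IL2RA, the high-affinity chain of the IL-2 receptor, had 1.94 in FBR and 2.99 in FTV (limma adjusted p = 0.0125). Of 22 immediate early and AP-1 genes 15 rose and 0 fell (median 1.38), with IRF8 at 3.11 and 3.80 and EGR2 at 1.83 and 3.18. JUN, an AP-1 subunit named from an older locus described as AP-1-like, had -2.50 in FBR and -1.35 in FTV and did not pass (limma adjusted p = 0.0552).

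Downstream of the receptor, NF-kB pathway genes rose in 10 of 27 and fell in 0 (median 0.59), with BIRC3, an inhibitor of apoptosis, at 2.44 and 2.45. Feedback phosphatase, SOCS, PIM and RGS genes rose in 11 of 19 and fell in 0 (median 1.23), and DUSP5, a nuclear phosphatase of ERK, had 2.53 and 3.36. Of 25 genes of T cell receptor signalling 8 fell and 4 rose. TRAF3IP3 and the adaptor SIT1 fell by 1.91 and 1.78, while the adaptor SLA rose by 2.04 (limma adjusted p = 0.017, 0.0101 and 0.0101). Of the 25 genes 32% fell and 16% rose, against 10.8% and 11% of all features. The list's median was 0.07, with -0.09 on the self-self arrays, so the sign of the median is not settled. More members fell than rose in each processing compared, 5 against 1 on the self-self arrays and 1 against 0 with median centring.

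Ribosome biogenesis genes rose in 29 of 31 and heat shock proteins and chaperones in 20 of 22, with 0 falls in either list and medians of 1.25 and 1.23. With median centring 2 and 0 of them were called, at medians of 1.46 and 1.47, and each of the other lists kept at most 4 rises and 3 falls. All 31 and all 22 had the same sign in both animals. DDX21, an RNA helicase of the nucleolus, had 2.14 in FBR and 2.86 in FTV, and the chaperone HSPA8 had 1.60 and 1.89. Aminoacyl-tRNA synthetase genes rose in 12 of 17, and EPRS alone fell (median 1.08). Of 14 genes of the MYC and cell growth list 9 rose and 2, MXD1 and MXI1, fell (median 0.97); both encode partners of MAX that oppose MYC. MYC itself had 2.15 and 2.21 on the FBR arrays and 2.86 and 2.49 on the FTV arrays.

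Metabolic lists were more mixed, beside 11% of all features that rose and 10.8% that fell. Glycolysis genes rose in 7 and fell in 2 of 21 (median 0.39), with LDHA, lactate dehydrogenase, at 1.14 in FBR and 2.35 in FTV and the enolase gene ENO2 at -1.77 and -1.81. Amino acid and one-carbon genes rose in 7 and fell in 2 of 23 (median 0.54), and cholesterol genes rose in 6 and fell in 3 of 18 (median 0.52). MTHFD2, a mitochondrial one-carbon enzyme, had 1.67 and 2.75, and SREBF1, a regulator of lipid synthesis, 1.42 and 2.44. The ratio was larger in FTV for LDHA, MTHFD2 and SREBF1, and larger in FBR for SLC16A1, a lactate transporter and the largest riser of the glycolysis list (2.29 in FBR, 1.80 in FTV).

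Of 15 G1 cyclin and inhibitor genes 5 rose and 3 fell (median 0.02; the scanner software's ratios gave -0.04). CCND2, a G1 cyclin, rose by 2.79 and the inhibitors CDKN1B and CDKN2D fell by 1.35 and 1.3. Of 15 proliferation genes 1 rose and 2 fell (median -0.13, or 0.01 with median centring), shares near those of all features. Of 22 genes of quiescence and homing 7 fell and 3 rose (median -0.29). TSC22D3, a glucocorticoid-induced gene of resting cells, had -2.98 in FBR and -2.93 in FTV, and ID3, an inhibitor of E proteins, had -2.60 and -2.42. Apoptosis regulators rose in 10 and fell in 2 of 17 (median 0.49), with the survival genes BCL2L1 (2.04, 2.61) and BCL2A1 (2.50, 1.41) highest.

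Of the remaining lists, interferon gamma targets rose in 9 of 15 and fell in 0 (median 1.34), and costimulatory and checkpoint receptors rose in 6 and fell in 4 of 20 (median 0.32). CD27, a costimulatory receptor, fell by 1.96. Chemokine receptors rose in 2 and fell in 2 of 15 (median 0.10), and calcineurin and NFAT genes rose in 1 and fell in 3 of 16 (median 0.04, or -0.03 on the self-self arrays). The chemokine receptor shares, 13.3% each way, were near the 11% and 10.8% of all features. For calcineurin and NFAT genes 6.25% rose and 18.8% fell. Of the B cell markers 3 of 8 fell (37.5%, against 10.8% of all features), CR2, CD79B (-2.30, -2.28) and MS4A1. Of the monocyte markers 3 of 13 fell (23.1%), S100A8, S100A9 and VCAN. The part of such cells in the results was not tested.

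**Figure D3:**
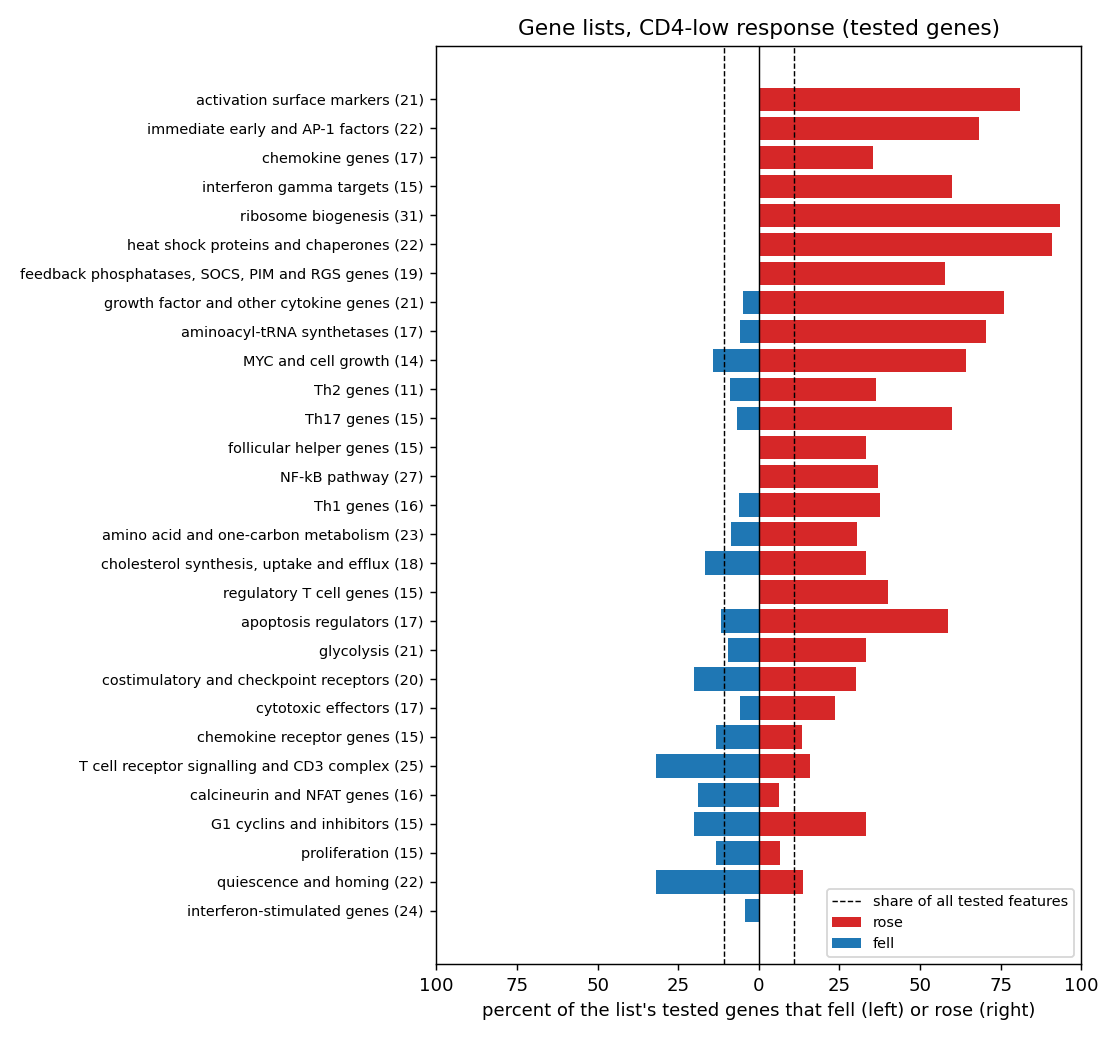
For each of the 29 gene lists, ordered by median log2 ratio, the percent of tested genes (number in brackets) that rose (red, right) or fell (blue, left) in the CD4-low animals; dashed lines mark the 11% of all features that rose and the 10.8% that fell. Ribosome biogenesis and heat shock proteins reach furthest, and the interferon-stimulated genes are at the bottom.

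The 2 CD4-low animals had ratios of the same sign in 18146 of 21837 features. Across features their ratios correlated at r = 0.88 (Pearson, 21837 features that share arrays and animals), against 0.91 between FBR and FKN and 0.91 between FTV and FKN. The correlations with FNV were lower, at 0.75 for FBR, 0.69 for FTV and 0.73 for FKN. The SD of the ratios was 0.56 in FBR and 0.67 in FTV. At least 2-fold changes seen in FTV only numbered 1199, of which 1173 had the same sign in FBR, and those seen in FBR only numbered 291. Of the 1259 features past 2-fold in both, 921 were larger in FTV, with a median ratio of the log2 values of 1.15. The order, more in FTV only than in FBR only, also held with the scanner software's ratios (2016 against 620) and in the authors' deposited table (2071 against 735).

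Interferon-stimulated genes, the antiviral programme switched on by type I interferon, separated the animals. In FTV all 24 tested genes had a ratio below 0, and in FBR 10 of 24, where 50.6% and 51.1% of all features were below 0. The list's median was -0.98 in FTV and 0.09 in FBR, and 1 gene, ISG15, fell by the test (-0.66 in FBR, -1 in FTV; limma adjusted p = 0.0309). All 24 had a higher unstimulated level in FTV, against 43.6% of all tested features. The mean unstimulated log2 level of the list was 11.86 in FTV, 10.01 in FBR, 9.65 in FNV and 10.12 in FKN.

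IFIT1, which binds viral RNA, stood at 14.61 unstimulated and 12.97 stimulated in FTV, and at 11.72 and 11.16 in FBR. MX1, a dynamin-like antiviral protein, stood at 15.02 and 13.67 in FTV and at 13.42 and 13.41 in FBR. Both were higher in FTV than in FBR, and their distance narrowed after stimulation. The self-self arrays gave list medians of -0.96 in FTV and 0.03 in FBR, and a higher unstimulated level in FTV for 24 of 24 genes. With median centring 22 of 24 were below 0 in FTV and 7 in FBR. With 1 animal on each side this is a description of FBR and FTV and has no test.

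**Figure D4:**
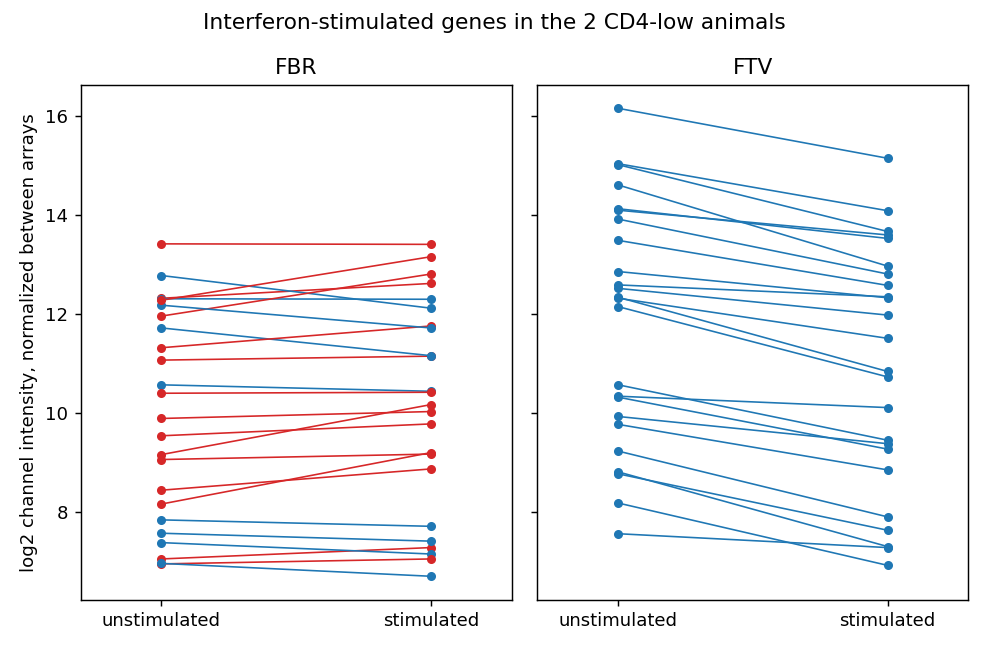
Log2 channel intensity, normalized between arrays, of the 24 tested interferon-stimulated genes without and with stimulation in FBR (left) and FTV (right), each line 1 gene, blue where the ratio was below 0 and red otherwise. All 24 lines descend in FTV, from a mean level of 11.86, and 10 of 24 in FBR, from 10.01.

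Cytotoxic effector genes separated the animals by level more than by response. Of 17 tested genes 4 rose and 1 fell (median 0.20; median 0.00 in FBR and 0.19 in FTV). These are 23.5% and 5.88%, against 11% and 10.8% of all features. Their mean unstimulated log2 level was 9.39 in FBR, 11.94 in FTV, 9.88 in FNV and 9.58 in FKN. Of the 17 genes 16 were higher in FTV than in FBR, against 43.6% of all tested features. GZMH, a granzyme, stood at 8.47 in FBR and 15.14 in FTV, and KLRD1, a receptor subunit of cytotoxic and natural killer cells, at 6.71 and 12.02. PRF1, the pore-forming protein perforin, went from 9.61 to 9.57 in FBR and from 14.45 to 16.29 in FTV. GZMB, which perforin delivers, had ratios of 0.82 and 2.00 (limma adjusted p = 0.0394).

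The summed unstimulated log2 level was 10.13 in FBR and 12.27 in FTV for the gamma delta T cell list, where TRGC1 stood at 9.38 and 10.87 and TRDC at 7.33 and 7.14. That sum also holds SOX13 (7.57, 7.85) and ZNF683, a factor of resident and cytotoxic lymphocytes. ZNF683 stood at 6.74 in FBR and 11.39 in FTV, the widest distance of the list. For the natural killer cell list the sum was 10.35 and 10.90. It holds all 12 probes, of which 3 were above background in none of the 4 unstimulated channels. Of the 4 tested markers 2 were higher in FTV, against 43.6% of all tested features. Not among those 4 were FGFBP2 (6.52, 7.61) and KLRF1. KLRF1, above background in 2 of 4 unstimulated channels, stood at 6.42 and 8.92, FCGR3A at 6.81 and 7.70, CD244 at 7.21 and 7.09 and NCR3 at 7.58 and 7.47. Of the 13 tested monocyte markers 10 were higher in FTV, again beside 43.6% of all tested features. Among them was S100A9 (10.28, 12.27), while CD163 (9.70, 7.73), CSF1R (7.53, 6.79) and CST3 (12.37, 11.81) were lower. The part of the cells these genes mark was not tested.

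Among single named genes, the 5 with the ratio most above FBR in FTV were FST, CCL23, STEAP1, PRF1 and TNFRSF12A. FST, which encodes the activin antagonist follistatin, had 0.94 and 0.85 on the FBR arrays and 4.01 and 3.68 on the FTV arrays. The 5 with the ratio most below FBR in FTV were ZNF683, CRB2, LY86, IL3 and IL31. ZNF683, a factor of resident and cytotoxic lymphocytes, had -0.23 and 0.00 in FBR and -4.49 and -4.28 in FTV, and its unstimulated level was 6.74 in FBR and 11.39 in FTV. LY86, a partner of a Toll-like receptor homologue, had 1.80 and 1.91 in FBR and -0.31 and -0.20 in FTV.

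Some of these distances were smaller with other processing or on another probe. IL3, a haematopoietic cytokine, had 3.67 in FBR and 1.65 in FTV here and 4.48 and 4.47 with the scanner software's ratios. CRB2 had -0.46 and -3.22 here and -3.25 and -3.96 with those ratios. Another tested probe of CRB2 had 0.09 in FBR and -0.13 in FTV, so its fall and its distance rest on a single probe. Only 2 of 4 unstimulated channels of IL3, IL31 and CCL23 were well above background, and 2 of 4 stimulated channels of CRB2. FST kept its distance with the scanner software's ratios, at 1.37 and 4.10, as did ZNF683, at -0.83 and -5.08.

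The study's design sets the response of CD4-low animals against that of CD4-normal animals. With 2 animals against 2, no feature passed that difference (0 of 21837, 0%; limma, smallest adjusted p = 1), and 460 (2.11%) had an unadjusted p under 0.05. The genes with the smallest unadjusted p are given with their values and are not calls. The CD4-normal animal FNV was scanned on another day than the other 3, so the differences are also given without FNV.

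IL2 had the largest distance of the 10. Its log2 ratio was 6.44 in FBR and 5.29 in FTV, against 3.61 in FNV and 2.99 in FKN, a difference of 2.57 with a standard error of 0.45 (limma unadjusted p = 0.00335, adjusted p = 1), or 2.87 without FNV. The 2 pairs did not overlap, in a gene chosen by its small unadjusted p. Unstimulated log2 levels of IL2 were 7.32 and 6.69 in the CD4-low pair and 7.73 in each CD4-normal animal, and stimulated levels were 13.76 and 11.98 against 11.34 and 10.72. The stimulated level was thus highest in the CD4-low pair, and the unstimulated level lowest.

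CISH, induced by IL-2 receptor signals, had 3.32 and 3.60 in the CD4-low pair against 1.55 in FNV and 2.26 in FKN (difference 1.55, standard error 0.28; unadjusted p = 0.00379 by limma), or 1.20 without FNV. TNFSF11 had 2.33 and 2.65 against 1.27 and 0.76 (difference 1.47, standard error 0.23; unadjusted p = 0.00221 by limma), or 1.72 without FNV. For CISH the unstimulated levels were 10.25 and 9.97 in the CD4-low pair and 12.67 and 11.30 in the CD4-normal pair, while all 4 stimulated levels lay between 13.56 and 14.22. The remaining positive differences were of genes that did not pass in the CD4-low response, C19H19orf59 and CLEC4A, a lectin receptor of myeloid cells. Without FNV their differences were 1.18 and 1.11. CLEC4A had -0.54 in FBR and -0.32 in FTV against -1.75 in FNV and -1.54 in FKN. The summed monocyte level was 13.65 and 14.07 in FBR and FTV, 17.19 in FNV and 14.01 in FKN, and its part was not tested.

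EDN1, which encodes the vasoconstrictor endothelin 1, was the gene with the smallest unadjusted p (7.71e-05 by limma; adjusted p = 1). It had 1.54 in FBR and 1.52 in FTV against 3.45 in FNV and 3.29 in FKN, a difference of -1.84 with a standard error of 0.13, or -1.76 without FNV and -2.54 in the authors' deposited table. KCNJ2, an inward rectifier potassium channel, had 0.67 and 0.73 against 2.42 and 1.96 (difference -1.48, standard error 0.20), or -1.25 without FNV. Both rose in the CD4-low animals by the test (limma adjusted p = 0.0101 and 0.0344). DHRS9, a retinol dehydrogenase gene, SLAMF7, a surface receptor (1.15 and 0.94 against 2.03 and 1.78), and RPS6KA5, a kinase of the MAP kinase pathway, complete the 5 lower ones. RPS6KA5 fell in the CD4-low animals, with -1.13 and -1.35 against -0.38 and -0.56. Without FNV the differences were -1.04 for DHRS9, -0.74 for SLAMF7 and -0.69 for RPS6KA5.

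Other defining cytokines did not pass for the difference either. IL5 differed by 0.57 (standard error 0.40), IL22 by 0.52 (0.36), IL4 by 0.13 (0.38), IFNG by 0.35 (0.56) and IL17A by -0.17 (0.41), all with limma unadjusted p values from 0.218 to 0.745 (standard errors in brackets). Without FNV the differences were 0.70 for IL5, 0.71 for IL22, 0.65 for IL4, 1.06 for IFNG and -0.21 for IL17A. IL13 had 4.75 and 4.19 in the CD4-low pair and 1.14 in FNV and 3.53 in FKN (difference 2.13, standard error 0.83; limma unadjusted p = 0.0544). The IL13 difference was 0.94 without FNV.

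**Figure D5:**
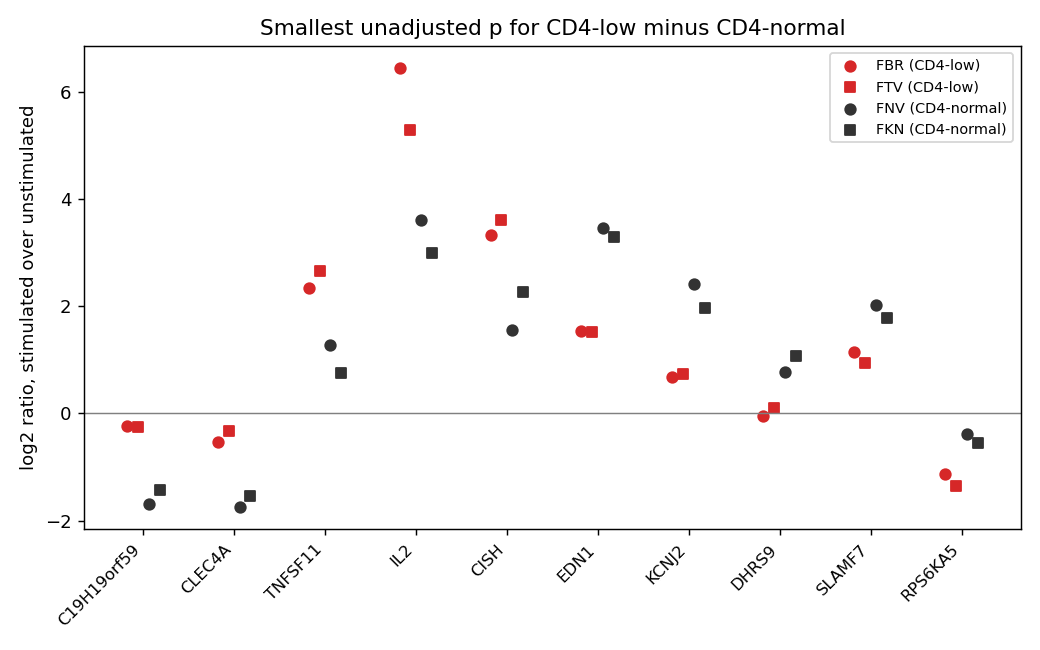
Log2 ratio of stimulated over unstimulated in each of the 4 animals for the 10 genes with the smallest unadjusted p for the difference by CD4 status, 5 higher and 5 lower in the CD4-low animals (red) than in the CD4-normal animals (grey). The 10 were chosen by this p, so the distance between their pairs is no further evidence. IL2 and EDN1 stand furthest apart.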

How the data were processed

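RNA was measured on 16 Agilent 2-colour arrays. The deposited scanner files give, per the file headers, the intensity of each spot and its log10 ratio as computed by the scanner software (Agilent Feature Extraction 10.7.3.1). The authors' deposited table holds a log2 ratio per probe; the submitters' processing notes name limma, with no role or settings.

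Intensities were background-corrected by normexp with offset 50, which understates the change of dim genes, and normalized by loess within each array (limma 3.58.1, R 4.3.3, tables with data.table version 1.17.8, figures with Python 3.11.15 and matplotlib 3.10.9). Control spots and outlier spots were left out. Ratios were turned to stimulated over unstimulated by the channel labels, and the 2 arrays of an animal averaged. One array of FNV has labels that conflict with each other. Of 43603 probes 26254 were kept as well above background, and 21837 features, 8496 with a symbol, were tested in one limma fit over 4 animals with Benjamini-Hochberg adjustment at 0.05. Some symbols rest on descriptions of the form gene-like. Levels are log2 channel intensities normalized between arrays (Aquantile) and are compared only within a probe. Self-self noise was taken without background correction, since normexp left a lowest log2 intensity of 6.82 and a median of 11.32 on the stimulated self-self array of FTV. Levels on the self-self arrays, and the responses and list medians taken from them, kept normexp.

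Named genes were the 15 largest rises and 10 largest falls among called 2-fold features, the 2 largest in each direction per list, a set of defining genes, 5 genes each way for the difference by CD4 status and 5 each way for FBR against FTV; further list members were named after their values were seen. Members and lists were chosen with earlier results of these data known. The scripts were tested on simulated data.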

Additional observations from a re-analysis of the deposited data

How the results depend on the processing

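Of the 4764 features called in the CD4-low response, median centring left 150 (59 higher, 91 lower), and levels on the self-self arrays gave 2646 with the animal as replicate block and 41 with no replicate block. The block pairs the stimulated and unstimulated RNA of 1 animal. Results without FBR or without FTV are given above. Leaving out FNV or FKN, or adding scan batch as a term, rests the CD4-low spread on FBR and FTV alone. These settings are therefore the same fit as that of the 2 CD4-low animals alone, which called 6982, and are no separate check of batch. The other alternatives gave 3256 to 5812. The 1259 features past 2-fold in both animals became 2546 with the scanner software's ratios and 2517 in the authors' deposited table, and 1003 to 1391 otherwise, the self-self value having been added after seeing the data. The difference by CD4 status had 0 calls by limma under every alternative run, with 19 to 3068 features at an unadjusted p under 0.05. For the named genes 1620 comparisons of the response kept the call or its absence. These include sign changes of genes called in neither fit, as for LY86 without FBR. In the other comparisons 410 lost and 10 gained the call, all with the direction unchanged. The cause was not tested. The number of animals, 2 per group, limits the precision, and dim probes have compressed ratios.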
